A study of Mus musculus with 21 samples.

Results

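The genes described here are 75 mouse RNA helicases and splicing factors. They were chosen by symbol: the DEAD-box helicases (Ddx, without the germ cell gene Ddx4), the DEAH-box helicases (Dhx), the hnRNP proteins, the SR proteins (Srsf), the subunits of SF3a and SF3b (Sf3), the snRNP proteins (Snrp), the Prpf factors and the Lsm proteins. In the array's probe annotation 91 such symbols occurred on 133 probes, and 75 of them, on 99 probes, had values on at least 3 arrays in every comparison, out of 4465 genes tested. The 16 that did not pass were Ddx20, Ddx39b, Ddx58, Dhx29, Dhx57, Hnrnpa0, Hnrnph1, Lsm14a, Lsm3, Lsm8, Prpf19, Prpf4, Prpf6, Sf3a2, Sf3b3 and Snrpb. There were 21 Ddx, 7 Dhx, 15 hnRNP, 8 SR, 6 SF3, 8 Snrp, 6 Prpf and 4 Lsm genes, and 1 of them, Ddx3x, is X-linked.

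The study hybridised mouse gonad RNA to 21 two-colour arrays in 5 comparisons. Wild type whole ovary was set against wild type whole testis on 4 arrays, whole testis of 15 day wild type mice against that of adult wild type mice on 4, and whole testis of Spo11 knockouts against wild type whole testis on 4. Wild type testis and wild type ovary were also each set against the universal mouse reference RNA of Stratagene, on 4 and 5 arrays. Spo11 makes the DNA double-strand breaks that start meiotic recombination, and spermatocytes without it arrest before they become spermatids. At 15 days the first wave of spermatogenesis has not yet formed spermatids. The labels give no strain, no allele and no number of animals or pooling. They give an age only in the 15 day comparison, so the ovaries, the knockouts and the wild type testes of the other comparisons have none. They do not state that the arrays are separate animals or extracts, so the p-values cover array-to-array spread only, and this can be technical. The knocked-out gene has no probe named for it alone, and its level was not checked.

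Splicing removes introns in the spliceosome, which is built from small nuclear RNAs, each with a ring of Sm or Lsm proteins, and from the SF3 and Prpf factors. DEAD-box and DEAH-box helicases drive its rearrangements, and others unwind RNA during ribosome assembly, export and translation. SR and hnRNP proteins bind the pre-mRNA and help to choose splice sites. The testis is known for an unusually large amount of alternative splicing, and its meiotic and haploid cells carry many transcripts seen in few other tissues.

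Values are log2 ratios centred on each array's median, and a gene's value on an array is the mean of its probes. The labels do not say which RNA was the numerator. The order of the channels was opposite on some arrays of every comparison, yet arrays of opposite order correlated positively over all probes (r from 0.471 to 0.925), so the deposited values run the same way within a comparison. The likely numerator is the first RNA of each comparison as named above. The spermatid genes Tekt2, Hspa4l and Cetn4 were at -4.68, -4.49 and -4.95 in ovary against testis, although another, Oaz3, was at 0.79. Of 5 oocyte genes tested there 2 were higher, Gdf9 (1.0) and Padi6 (1.76), and the other three were not called (median of the 5, 0.33). For the other comparisons the basis is the spermatid markers given below, and for ovary against reference 3 of the 5 oocyte genes, which were higher, with 0 lower (median 0.87). If the reading were wrong for a comparison, its directions would turn. The base of the logarithm is not stated either and was taken as 2; with another base the printed fold changes would differ, and the log ratios, signs and tests would not. The array runs named below were inferred from the serial numbers in the array titles and may not be the true batches. Arrays held values for 6452 to 14012 of 16128 probes. Ovary against testis array 1 had the fewest and carried 58 of the 75 genes. The tests were limma's moderated tests over all 4465 genes with Benjamini-Hochberg adjustment. A gene is said to be higher or lower where the adjusted p was under 0.05. Each SE comes from this fit, in which a gene has the same spread in all 5 comparisons. It is not the spread of the arrays listed beside it. Depth in the sense of reads does not apply to arrays, and their number limits the precision.

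Markers of other cell types moved in the comparisons. The median ratio of 4 spermatid markers was -4.59 in ovary against testis, -3.04 in 15 day against adult testis, -4.36 in knockout against wild type testis and 4.93 in testis against reference, with 3 of the 4 called in that direction each time. In ovary against reference 4 of 4 steroidogenesis markers were higher (median 4.26). Of 10 Sertoli cell markers 9 were higher in the knockout (median 1.80), and of 16 stroma and matrix markers 11 were higher and 1 lower in ovary against testis (median 0.97) and 2 were higher and 12 lower in testis against reference (median -1.40). The part of these differences in the ratios below was not tested, and in whole tissue fewer cells of a type and less RNA per cell cannot be told apart.

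In ovary against testis 9 of the 75 genes were higher and 27 lower, with 59.0% of all tested genes called. Among all genes 22.4% were higher and 36.5% lower, and the 36 calls among the 75 make 48.0%. The median ratio of the 75, -0.26, lay beside -0.18 for all genes. In 15 day against adult testis 14 were higher and 17 lower, where 46.1% of all genes were called (18.0% higher, 28.1% lower), and the medians were 0.10 and -0.07. In the Spo11 knockout 12 were higher and 25 lower, where 57.2% were called (26.7% higher, 30.5% lower), with medians of -0.12 and -0.04. Testis exceeded the reference for 23 genes and fell below it for 8 (61.4% of all genes called, 35.5% higher and 25.9% lower; medians 0.23 and 0.12). Ovary exceeded it for 1 and fell below it for 7 (22.9% called, 9.54% higher and 13.4% lower; medians -0.15 and -0.06). These shares are near or under the background and are no result about the set, whose members spread widely in both directions. The first 3 comparisons and testis against reference share wild type testis as a source, and their values are given side by side.

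**Figure D1:**
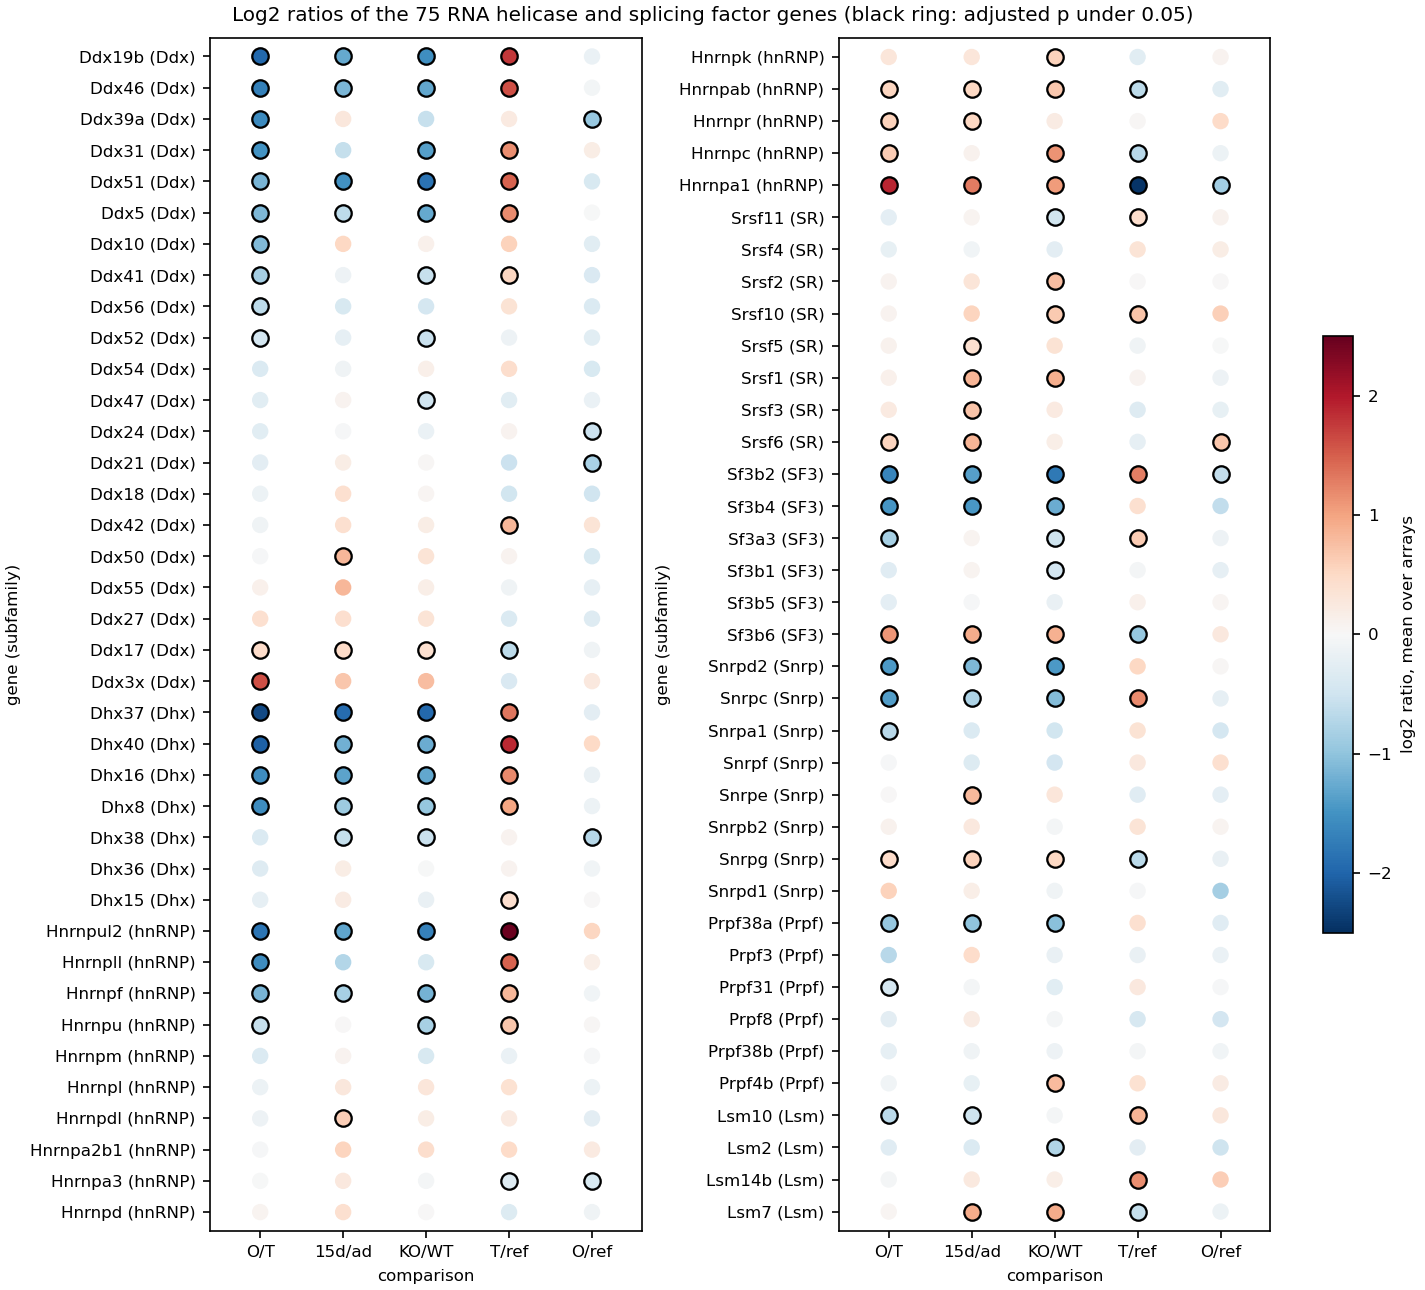
Log2 ratio of each of the 75 genes (rows, with the subfamily in brackets, sorted within each by ovary against testis) in the 5 comparisons (columns: O/T ovary against testis, 15d/ad 15 day against adult testis, KO/WT Spo11 knockout against wild type testis, T/ref and O/ref testis and ovary against reference RNA). Colour is the mean over arrays, red above 0 and blue below, and a black ring marks an adjusted p under 0.05; ovary against reference has 8 rings and the knockout comparison 37.

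The directions were counted by subfamily, beside 22.4% of all genes higher and 36.5% lower in ovary against testis. None of the 7 Dhx genes was higher in ovary than in testis and 4 were lower, with a median of -1.57. For the 21 Ddx genes the counts were 2 and 10 (median -0.36), for the 15 hnRNP genes 4 and 4 (median -0.03), for the 8 SR genes 1 and 0 (median 0.09) and for the 6 SF3 genes 1 and 3 (median -0.57). Of the 8 Snrp genes 1 was higher and 3 lower, of the 6 Prpf genes 0 and 2, and of the 4 Lsm genes 0 and 1. The Dhx genes also had the lowest subfamily median in 15 day against adult testis (-0.91, 5 of 7 lower) and in the knockout (-0.96, 5 of 7 lower), and their median in testis against reference was 0.99, with 5 of 7 higher. Of all genes 28.1% were lower at 15 days, 30.5% were lower in the knockout and 35.5% were higher in testis against reference. No test of a subfamily against another was made, and nothing is read from the counts of such small sets.

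**Figure D2:**
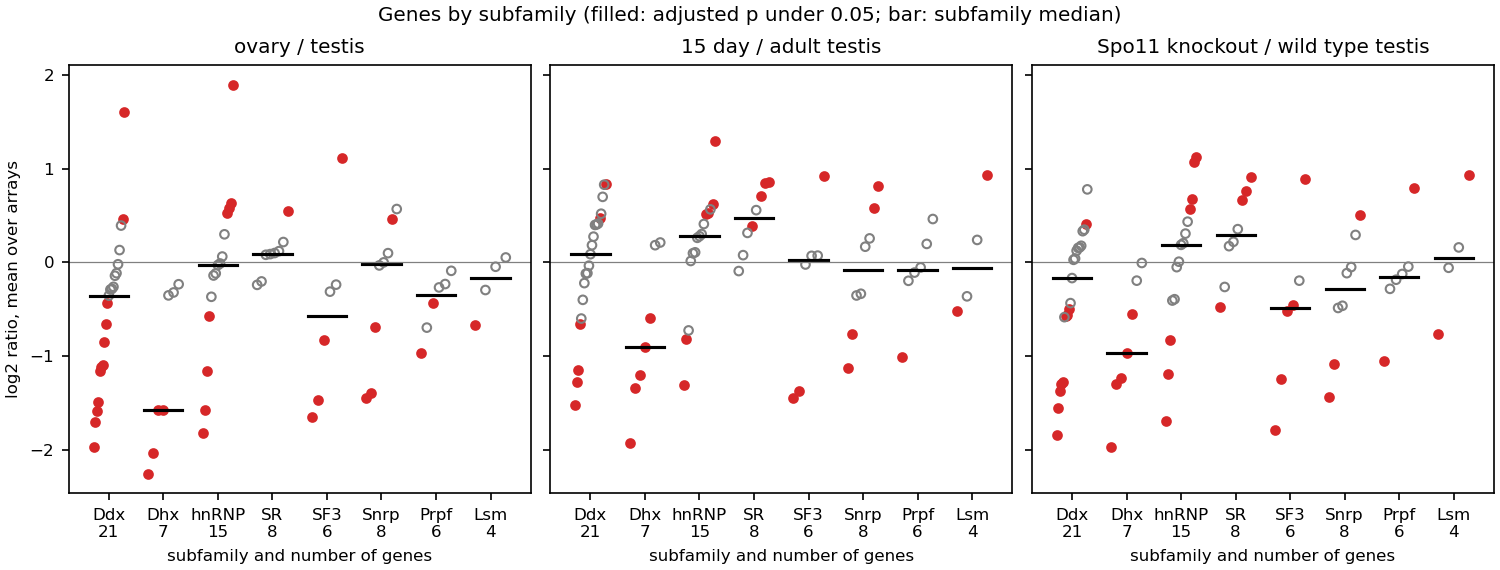
Log2 ratio (mean over arrays) of each gene by subfamily in ovary against testis, 15 day against adult testis and Spo11 knockout against wild type testis. Filled points have an adjusted p under 0.05, open points do not, and the bar is the subfamily median, which is lowest for Dhx in all 3 panels (-1.57, -0.91 and -0.96).

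Grouped by textbook role, after the values had been seen, 14 of the helicases serve ribosome assembly. In ovary against testis 0 were higher and 6 lower, where 36.5% of all genes were lower. Dhx37, which acts in the assembly of the small ribosomal subunit, had the lowest ratio of all 75 genes. Its 3 arrays in ovary against testis read -2.02, -2.45 and -2.31. In 15 day against adult testis they read -1.54, -1.41, -2.22 and -2.56, and in the knockout -2.51, -2.59, -1.35 and -1.42. All 11 values are below -1.3, and in the knockout arrays 1 and 2, which have the opposite channel order to arrays 3 and 4, were the lower ones. The same 2 knockout arrays were the lower ones for Dhx8, Dhx38, Dhx40, Ddx5 and Ddx39a. A term for channel order ended none of the calls among the 75 genes. That term was shared by all 5 comparisons, each of which holds both orders. It could not take up an order effect of the knockout arrays alone, which was not tested. The mean log2 ratios were -2.26 ± 0.28 (SE, n = 3; 4.79-fold lower in ovary, limma adjusted p = 7.33e-07), -1.93 ± 0.24 (n = 4, limma adjusted p = 1.79e-06) and -1.97 ± 0.24 (n = 4, limma adjusted p = 9.12e-07). Testis was above the reference on all 4 arrays, from 1.06 to 1.69, while ovary lay on both sides of it, from -1.09 to 0.26. The 250 bases before the start of Dhx37 are shown because it leads the genes that were lower in ovary (GRCm38.p6, chr5:125434049-125434298, minus strand, from RefSeq; capitals mark matches to GGGCGG or its reverse complement and to CCGGAAG).
Dhx37: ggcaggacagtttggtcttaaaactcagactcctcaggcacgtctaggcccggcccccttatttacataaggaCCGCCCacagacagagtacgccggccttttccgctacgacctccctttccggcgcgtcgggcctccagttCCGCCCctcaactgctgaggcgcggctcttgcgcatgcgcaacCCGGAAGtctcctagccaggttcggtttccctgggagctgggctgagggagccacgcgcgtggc

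Ddx51, a helicase of large subunit assembly, was low in the same 3 comparisons. It read -0.64, -0.52, -1.60 and -1.87 in ovary against testis, where arrays 3 and 4 lay well below arrays 1 and 2. The knockout arrays, at -2.15, -1.48, -1.90 and -1.84, were all below -1.4, and the 15 day arrays ran from -2.05 to -1.01. The means were -1.16 ± 0.27 (limma adjusted p = 0.00103), -1.84 ± 0.27 (limma adjusted p = 8.25e-06) and -1.52 ± 0.27 (limma adjusted p = 0.000113), each with n = 4. Ddx31, another nucleolar helicase, was lower in ovary (-1.50 ± 0.25) and in the knockout (-1.38 ± 0.29), and its 15 day mean of -0.60 did not pass (limma adjusted p = 0.0571), with array 1 at 0.52 and the other three from -1.09 to -0.88. Ddx10, which joins small subunit precursors, was lower in ovary than in testis, at -1.1 ± 0.22 on 4 arrays from -1.57 to -0.56. Its 15 day arrays lay within 0.45 to 0.56, with a mean of 0.52 that did not pass (limma adjusted p = 0.0586), and its knockout mean was 0.12. Ddx50, a nucleolar helicase, was higher at 15 days than in the adult (0.84 ± 0.21, n = 3, limma adjusted p = 0.00338). It was at 0.80 in array run 2, which is 1 array, and at 0.86 in run 5.

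The 7 helicases of the spliceosome or bound to it were Ddx41, Ddx42, Ddx46, Dhx8, Dhx15, Dhx16 and Dhx38. None was higher and 4 were lower in ovary than in testis, and the counts were 0 and 4 at 15 days, 0 and 5 in the knockout, and 6 and 0 in testis against reference. Of all genes 36.5%, 28.1% and 30.5% were lower in the first 3 of these and 35.5% higher in the last. The group was formed with the values known, and nothing is read from its counts. In testis against reference the calls of Ddx41, Ddx42 and Dhx15 each ended without array 2 (0.29, 0.31 and 0.22). The Ddx41 call also ended without array 4 in ovary against testis (-0.61), and without array 1 (-0.63) or 3 (-0.335) in the knockout. Ddx46 (Prp5), which helps the U2 snRNP onto the branch site, read -1.50, -1.44, -1.87 and -2.02 in ovary against testis. Its 4 arrays ran from -1.41 to -0.85 at 15 days, from -1.52 to -1.0 in the knockout and from 1.32 to 1.90 in testis against reference. All 16 values in these comparisons had the sign of their mean, and its ovary against reference arrays lay around 0, from -0.38 to 0.41. The means were -1.71 ± 0.16 (limma adjusted p = 1.17e-08), -1.15 ± 0.16 (4.74e-06), -1.30 ± 0.16 (5.91e-07) and 1.60 ± 0.16 (2.02e-08), each SE with n = 4.

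Dhx16 (Prp2), which starts the first catalytic step, and Dhx8 (Prp22), which releases the spliced mRNA, had the same mean in ovary against testis, -1.57. Dhx16 read -0.74, -1.39, -1.97 and -2.19 there, and Dhx8 read -0.88, -1.44, -1.92 and -2.05. In both genes array 1 was the nearest to 0 and array 4 the farthest. In the knockout Dhx16 was at -1.30 ± 0.21 (n = 4, limma adjusted p = 2.21e-05) and Dhx8 at -0.96 ± 0.22 (n = 4, limma adjusted p = 0.000682). At 15 days they were at -1.34 ± 0.24 (n = 3) and -0.91 ± 0.22 (n = 4), and the Dhx8 call at 15 days did not pass within run 2 alone (-0.77, limma adjusted p = 0.0996). Dhx38 (Prp16), of the second catalytic step, did not pass in ovary against testis, at -0.35 (limma adjusted p = 0.107). It was lower at 15 days (-0.59) and in the knockout (-0.56), calls that ended without 15 day array 1 (-0.49) and without knockout array 1 (-0.49) or 2 (-0.42). It was also 1 of the 7 genes lower in ovary than in the reference, at -0.65, -0.63, -0.99, -0.68 and -0.57 (mean -0.70 ± 0.17, limma adjusted p = 0.00342). Dhx15 (Prp43), which takes spent spliceosomes apart, was at -0.23 in ovary against testis, with arrays at -0.03, -0.27 and -0.40.

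Dhx40, a DEAH-box helicase, was second to Dhx37 in ovary against testis, at -2.08, -2.22 and -1.81. Its 15 day arrays were -0.39, -2.42, -1.16 and -0.86, and array 2 was the lowest of them by over 1 log2 unit. The knockout arrays were -1.50, -1.66, -0.79 and -1.0 and testis against reference 2.47, 1.82, 1.66 and 1.62. The means were -2.04 ± 0.29 (n = 3; 4.10-fold lower, limma adjusted p = 3.99e-06), -1.21 ± 0.25, -1.24 ± 0.25 and 1.89 ± 0.25 (each n = 4). Its upstream window is shown beside that of Dhx37 as the next gene in that order (GRCm38.p6, chr11:86807661-86807910, minus strand, from RefSeq; capitals mark a GGGCGG match and the reverse complement of TGACG).
Dhx40: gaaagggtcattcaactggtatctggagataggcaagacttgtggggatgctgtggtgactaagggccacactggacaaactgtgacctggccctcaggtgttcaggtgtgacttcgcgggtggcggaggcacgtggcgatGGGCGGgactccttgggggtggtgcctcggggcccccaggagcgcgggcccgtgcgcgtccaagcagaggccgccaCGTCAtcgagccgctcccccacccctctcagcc

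Among the helicases of transcription, export and translation the directions were mixed. Ddx19b, which strips proteins from mRNA at the nuclear pore, read -1.61, -2.27 and -2.03 in ovary against testis (mean -1.97 ± 0.27, limma adjusted p = 5.39e-06). Its 15 day arrays were close together, at -1.22, -1.35 and -1.26, and the knockout arrays were -1.99, -1.23 and -1.44. In testis against reference array 2 stood at 3.01 and the other three between 1.24 and 1.46. Ddx39a, an export helicase of the UAP56 family, was lower in ovary than in testis on all 4 arrays, at -0.92, -1.74, -2.43 and -1.28 (mean -1.59 ± 0.26, limma adjusted p = 2.21e-05). It was also lower in ovary than in the reference (-0.95 ± 0.23, n = 5), with testis near the reference (0.22) and 15 day near adult testis (0.28). Its 5 ovary arrays ran from -1.43 to -0.32. Ddx5 (p68), a transcription and splicing cofactor, was at -1.12 ± 0.24 in ovary against testis and -1.27 ± 0.24 in the knockout. Its 15 day call (-0.66) ended without array 1, 3 or 4, at -0.55, -0.64 and -0.52. Its close relative Ddx17 (p72) was on the other side of 0, at 0.46 in ovary against testis and -0.66 ± 0.17 in testis against reference, and the ovary against testis call ended without array 2, 3 or 4 (0.47, 0.50 and 0.42).

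Ddx3x, the X-linked helicase that aids translation initiation, was one of 2 helicases higher in ovary than in testis. Its arrays read 0.77, 1.88, 1.75 and 2.04, with array 1 below the other three, and the mean was 1.61 ± 0.30 (n = 4; 3.05-fold, limma adjusted p = 0.000117). The 15 day arrays, at 0.40, 0.98 and 0.72, and the knockout arrays, at 0.30, 0.71 and 1.33, were all above 0. Neither mean passed, at 0.70 ± 0.34 (limma adjusted p = 0.104) and 0.78 ± 0.34 (limma adjusted p = 0.0591). In testis against reference the arrays were scattered over both sides of 0, at -1.42, -0.22, 1.1 and -1.0, and in ovary against reference they lay from -0.12 to 0.65. Ddx3x has a Y-linked copy and a retrogene that is active in testis, and whether its probe also binds their transcripts was not tested. Its 2 other probes had too few values to be kept and lay on either side of the kept one: their means were 2.56 and 0.74 in ovary against testis (3 arrays each), 1.43 and 0.40 at 15 days, 1.85 and 0.25 in the knockout, and -2.25 and -0.18 in testis against reference. Its window is shown as that of the only X-linked gene among the 75 (GRCm38.p6, chrX:13280772-13281021, plus strand, from RefSeq; capitals mark the reverse complement of GGGCGG and a TGACG match).
Ddx3x: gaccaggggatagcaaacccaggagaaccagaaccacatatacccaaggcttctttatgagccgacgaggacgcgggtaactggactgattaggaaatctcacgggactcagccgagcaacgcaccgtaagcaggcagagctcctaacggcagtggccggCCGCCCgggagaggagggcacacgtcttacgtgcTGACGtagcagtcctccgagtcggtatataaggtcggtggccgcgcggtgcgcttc

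The hnRNP genes held both the highest ratio in ovary against testis and some of the lowest. Hnrnpa1, an abundant hnRNP that represses splice sites and shuttles between nucleus and cytoplasm, read 1.70, 2.15, 1.88 and 1.87 there. At 15 days it read 1.26, 1.15, 1.55 and 1.23, and in the knockout 0.95, 1.64, 0.23 and 1.46. In testis against reference all 4 arrays lay between -2.61 and -2.27, and in ovary against reference all 5 lay between -1.09 and -0.60, so the ranges of testis and ovary against the reference did not overlap. The means were 1.90 ± 0.18 (3.73-fold higher in ovary, limma adjusted p = 1.62e-08), 1.30 ± 0.18 (5.34e-06), 1.07 ± 0.18 (3.32e-05), -2.46 ± 0.18 (3.06e-10), each n = 4, and -0.87 ± 0.16 (n = 5, 0.000385). The 15 day value was 1.2 in array run 2 and 1.39 in run 5. Its 3 probes had means of 2.01, 1.74 and 2.03 in ovary against testis, and in the knockout 0.74 ± 1.63 (SD), 1.26 ± 0.31 and 1.21 ± 0.49, so 1 of the probes was widely spread in the knockout, where array 3 was low. Hnrnpa1 has many processed copies in the genome, and their part in the signal was not tested. Its window is shown as that of the leading gene on the high side and for its repeated CCAAT letters (GRCm38.p6, chr15:103240147-103240396, plus strand, from RefSeq; capitals mark 4 CCAAT and 2 GGGCGG matches).
Hnrnpa1: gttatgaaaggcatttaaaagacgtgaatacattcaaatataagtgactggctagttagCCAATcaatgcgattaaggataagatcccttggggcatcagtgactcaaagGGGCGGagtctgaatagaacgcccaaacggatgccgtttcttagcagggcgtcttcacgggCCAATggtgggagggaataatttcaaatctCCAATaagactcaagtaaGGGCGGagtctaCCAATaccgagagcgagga

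Hnrnpul2, a relative of the nuclear matrix protein hnRNP U, had the opposite profile. It read -1.64, -2.17 and -1.65 in ovary against testis, -0.87, -1.72, -1.46 and -1.19 at 15 days, and -1.61, -1.34, -2.28 and -1.56 in the knockout. Testis lay above the reference on 4 of 4 arrays, at 2.52, 2.95, 2.16 and 2.22, the highest ratio to the reference among the 75 genes (2.46 ± 0.23, 5.51-fold, limma adjusted p = 1.38e-08). The other means were -1.82 ± 0.26 (n = 3, limma adjusted p = 6.06e-06), -1.31 ± 0.23 (n = 4, 9.36e-05) and -1.70 ± 0.23 (n = 4, 3.07e-06). Hnrnpf, which binds runs of G near splice sites, was lower in ovary (-1.16 ± 0.22), in the knockout (-1.19 ± 0.25) and at 15 days (-0.82 ± 0.22), with -0.92 in run 2 and -0.73 in run 5 for the last, neither of which passed alone. Hnrnpll, known for its role in lymphocyte splicing, was lower in ovary (-2.23, -1.02 and -1.47; mean -1.57 ± 0.40, limma adjusted p = 0.00215), and its 15 day and knockout means of -0.73 and -0.39 did not pass. Hnrnpab was higher in the knockout on every array (0.72, 1.14, 0.40 and 0.46; mean 0.68 ± 0.17, limma adjusted p = 0.00202), and Hnrnpk, a poly(C)-binding hnRNP, was at 0.56, 0.51, 0.70 and 0.53 there (mean 0.57 ± 0.17, limma adjusted p = 0.00692).

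Hnrnpc, which binds U-rich RNA and holds off cryptic exons, was at 1.12 ± 0.25 in the knockout (limma adjusted p = 0.000643), on arrays at 0.67, 0.26, 2.19 and 1.39. Its 2 probes differed there, at 0.06 and 1.66, with the same sign. In ovary against testis it was at 0.64, and that call ended without array 1 (0.44) or array 2 (0.66). A probe left out for missing values read -0.40 there on 3 arrays, and 0.16 on 4 arrays in testis against reference, against a mean of -0.69 for the kept probes. Hnrnpu was at -0.83 in the knockout, with arrays from -1.99 to -0.01, and its probes there had means of -1.22 and -0.44.

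**Figure D3:**
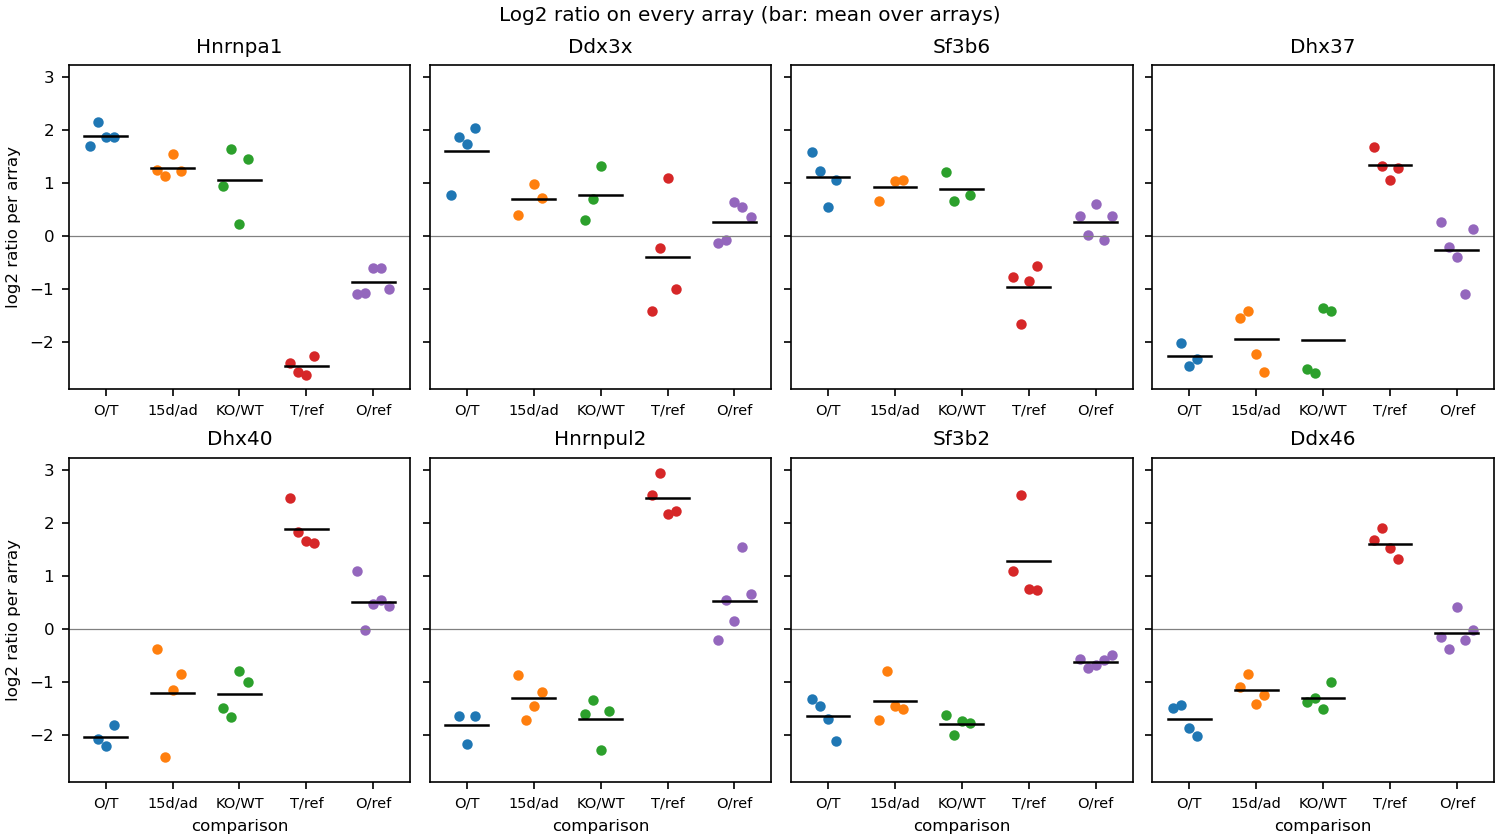
Log2 ratio on every array (points) with the mean over arrays (bar) for 8 genes in the 5 comparisons, named on the x axis as O/T, 15d/ad, KO/WT, T/ref and O/ref for ovary against testis, 15 day against adult testis, Spo11 knockout against wild type testis, and testis and ovary against reference. Hnrnpa1 and Sf3b6 lie above 0 in the first 3 and below it in T/ref, whereas Dhx37, Dhx40, Hnrnpul2, Sf3b2 and Ddx46 lie below 0 in the first 3 and above it in T/ref.

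The SR proteins, which mostly promote the use of the exons they bind, differed little between ovary and testis. Their ratios there ran from -0.24 (Srsf11, arrays -0.30, -0.30 and -0.12) to 0.55 (Srsf6, arrays 0.44, 0.56 and 0.65). The Srsf6 call ended without array 2, 3 or 4 (0.60, 0.55 and 0.50). At 15 days 4 of the 8 were higher than in the adult and 0 lower, beside 18.0% and 28.1% of all genes. The median of the 8 was 0.48, and the 4 were Srsf1, Srsf3, Srsf5 and Srsf6. Srsf6 read 0.52, 0.94, 0.87 and 1.09 (mean 0.85 ± 0.19, limma adjusted p = 0.000936; 0.73 in run 2 and 0.98 in run 5). Srsf1, the founding SR protein, read 0.56, 0.90, 0.89 and 1.04 (mean 0.85 ± 0.22, limma adjusted p = 0.00328; 0.73 and 0.97 by run). Srsf3 lay within 0.59 to 0.93, and its call did not pass within run 2 (0.76) or run 5 (0.65) alone. Srsf5, at 0.39, lost its call whichever 15 day array was left out, at 0.29, 0.42, 0.40 and 0.47 without arrays 1 to 4. In the knockout 3 SR genes were higher and 1 lower, beside 26.7% and 30.5% of all genes. Srsf1 was again higher, at 1.05, 1.34, 1.2 and 0.05 (mean 0.91 ± 0.22, limma adjusted p = 0.00128), with array 4 apart from the other three. Srsf2 (SC35) was higher there too (0.76 ± 0.22, limma adjusted p = 0.00575), while Srsf6 was at 0.94, -0.46 and 0.04. Srsf10 was the other higher gene (0.66), a call that ended without array 1 (0.52) or 3 (0.59). Its 2 kept probes had means of 0.13 and 1.5 there, and with 1 probe per gene the call ended (0.13, limma adjusted p = 0.729). Srsf11 was the lower gene (-0.47), a call that ended without array 2 (-0.38) or 3 (-0.45). Srsf6 was the only one of the 75 genes higher in ovary than in the reference under these settings, at 0.68, 0.63, 0.91, 0.58 and 0.71 (mean 0.70 ± 0.17, limma adjusted p = 0.00428).

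SF3b sits in the U2 snRNP and grips the branch site, and SF3a joins it to the rest of that particle. Subunits of this one complex had ratios of opposite sign. Sf3b6 (p14), which lies next to the branch site region, was higher in ovary than in testis at 1.59, 1.23, 0.56 and 1.07 (mean 1.11 ± 0.19; 2.16-fold, limma adjusted p = 5.48e-05). It was also higher at 15 days (0.66, 1.05 and 1.06; mean 0.92 ± 0.22, limma adjusted p = 0.00207) and in the knockout (1.22, 0.67 and 0.77; mean 0.89 ± 0.22, limma adjusted p = 0.00201), and lower in testis than in the reference on 4 of 4 arrays, from -1.65 to -0.57. Its single run 2 array at 15 days, at 0.66, did not pass alone (limma adjusted p = 0.273).

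Sf3b2 (SF3b145), a partner of several subunits, was lower in ovary at -1.32, -1.46, -1.70 and -2.13 (mean -1.65 ± 0.22, limma adjusted p = 1.67e-06). It was lower in the knockout on arrays from -2.0 to -1.62 (mean -1.79 ± 0.22, limma adjusted p = 7.62e-07) and at 15 days on arrays from -1.72 to -0.80 (mean -1.37 ± 0.22, limma adjusted p = 3.12e-05). Its 2 probes agreed in sign and differed in size, with -0.84 and -2.47 in ovary against testis and -1.02 and -2.56 in the knockout. In testis against reference the probes were at 0.07 and 2.48, so the mean of 1.27 rests on 1 of them. Sf3b4 (SF3b49) was lower in ovary (-0.77, -1.37, -1.67 and -2.05; mean -1.47 ± 0.38, limma adjusted p = 0.00216), at 15 days (-1.40, -1.48 and -1.48; mean -1.45 ± 0.43, limma adjusted p = 0.0092) and in the knockout (-1.25 ± 0.38, limma adjusted p = 0.00733). Its SD was 0.046 over the 15 day arrays and 1.53 over the ovary against reference arrays, and the fit gives both the same spread. With the arrays scaled to a common spread its ovary and knockout calls ended, at -1.25 (limma adjusted p = 0.0563) and -1.05 (0.110). Sf3a3 was lower in ovary (-0.83 ± 0.18), and its knockout call (-0.52) ended without array 1 (-0.51) or array 2 (-0.39). Sf3b1, the large scaffold of SF3b that holds the branch site, was at -0.31 in ovary against testis, and Sf3b5 was at -0.24, neither of which passed.

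Of the snRNP proteins, Snrpc (U1-C), which steadies U1 on the 5' splice site, and the Sm protein Snrpd2 were lower in ovary. Snrpc read -0.66, -1.85, -1.31 and -1.78 (mean -1.40 ± 0.22, limma adjusted p = 1.05e-05), and it was at -0.76 ± 0.22 at 15 days, -1.09 ± 0.22 in the knockout and 1.19 ± 0.22 in testis against reference. Snrpd2 read -1.02, -1.54, -1.84 and -1.38 (mean -1.45 ± 0.32, limma adjusted p = 0.000613). It was also lower at 15 days (-1.12 ± 0.32) and in the knockout (-1.78, -1.64 and -0.90; mean -1.44 ± 0.37, limma adjusted p = 0.00232). Its testis against reference arrays, at 1.57, 1.06, -1.49 and 0.92, held 1 array of the opposite sign. Snrpg, another protein of the same ring, was on the other side of 0, at 0.47 in ovary against testis, 0.58 at 15 days, 0.51 in the knockout and -0.67 ± 0.17 in testis against reference. The first of these calls ended without array 1, 2 or 4 (0.45, 0.40 and 0.49), the second without array 2 (0.47), and the third without array 2, 3 or 4 (0.36, 0.46 and 0.48). Snrpe was higher at 15 days, at 0.71, 1.16, 0.73 and 0.65 (mean 0.81 ± 0.19, limma adjusted p = 0.00167). It was at 0.94 in run 2 and 0.69 in run 5, and the call did not pass within run 5 alone. Snrpd1 read 4.6, -0.75, -0.68 and -0.89 in ovary against testis. Its mean of 0.57 did not pass, and without array 1 it was -0.77, which passed in the other direction (limma adjusted p = 0.00209).

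Among the Prpf factors Prpf38a, a factor of spliceosome activation, was lower in ovary, at 15 days and in the knockout. It read -0.72, -0.77, -1.22 and -1.16 in ovary against testis (mean -0.97 ± 0.27, limma adjusted p = 0.00349) and -0.53, -1.01, -2.07 and -0.60 in the knockout (mean -1.05 ± 0.27, limma adjusted p = 0.00186). The 15 day mean of -1.01 ended as a call without array 1, at -0.70. Prpf4b, a kinase of the spliceosome, was at 0.74, 0.93 and 0.72 in the knockout (mean 0.80 ± 0.26, limma adjusted p = 0.0125), a call that ended without array 2 (0.73), and its ovary against testis arrays lay on both sides of 0, from -0.58 to 0.19. Prpf8, the scaffold at the core of the spliceosome, was at -0.27 in ovary against testis, 0.20 at 15 days and -0.04 in the knockout, and none of these passed.

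The Lsm proteins form rings on U6 RNA and on mRNA that is to be decayed. Lsm7 was higher at 15 days (0.45, 1.41, 1.11 and 0.77; mean 0.94 ± 0.18, limma adjusted p = 0.000293; 0.93 in run 2 and 0.94 in run 5) and in the knockout (0.29, 1.02, 1.45 and 0.97; mean 0.93 ± 0.18, limma adjusted p = 0.000199). It was lower in testis than in the reference on 4 of 4 arrays (mean -0.59 ± 0.18). In ovary against testis it read -0.33, 0.16, 0.18 and 0.20, with a mean of 0.05 that did not pass. Lsm10, of the U7 particle that processes histone mRNA, was higher in testis than in the reference at 1.03, 0.82, 0.69 and 0.84 (mean 0.84 ± 0.19, limma adjusted p = 0.0006). Its ratio of -0.67 in ovary against testis ended as a call without array 3 (-0.66) or array 4 (-0.60). Lsm14b, an mRNA storage protein, was higher in testis than in the reference at 0.83, 2.59, 0.54 and 0.66, where array 2 was well above the rest, and it was at -0.05 in ovary against testis.

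The 15 day arrays fell in the inferred runs 2 and 5, 2 arrays each, and none of the 31 calls at 15 days turned sign within a run. Dhx37 was at -1.48 in run 2 and -2.39 in run 5, Ddx51 at -1.53 and -1.51, and Ddx46 at -0.97 and -1.33. Dhx16 was at -1.6 and -1.22, Dhx40 at -1.41 and -1.01, Hnrnpul2 at -1.29 and -1.32, and Sf3b2 at -1.26 and -1.49. The run 2 value of Dhx16 is 1 array, and no test is given for it. The other genes just listed passed within each run, with the spread taken from the fit to all 5 comparisons. Ddx19b (-1.22 and -1.31), Sf3b4 (-1.40 and -1.48), Snrpc (-0.61 and -0.91), Snrpd2 (-1.01 and -1.24), Srsf1 (0.73 and 0.97) and Srsf6 (0.73 and 0.98) passed in run 5 and not in run 2, where some had 1 array with a value.

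The ovary to testis ratio could also be formed from the arrays against the reference, which share no array with the direct comparison. By that route 3 of the 75 genes were higher in ovary and 21 lower, where 46.4% of all genes were called (17.6% higher, 28.7% lower). The 3 were Hnrnpa1 (1.59 ± 0.24, beside 1.90 direct), Sf3b6 (1.22 ± 0.26, beside 1.11) and Srsf6 (0.92 ± 0.25, beside 0.55). Ddx46 was at -1.68 beside -1.71, Hnrnpul2 at -1.93 beside -1.82, Ddx19b at -1.94 beside -1.97 and Sf3b2 at -1.89 beside -1.65. Ddx3x was at 0.66 ± 0.40 by this route, which did not pass (limma adjusted p = 0.186), and Snrpd2 at -0.48 ± 0.43. The difference between the routes was tested for each gene with limma, and none of the 75 and none of the 4465 passed. At an unadjusted p under 0.05 there were 0 of the 75 and 74 of all genes. The widest differences among the genes named here were 1.38 ± 0.89 for Snrpd1, -0.96 ± 0.54 for Snrpd2 and 0.95 ± 0.50 for Ddx3x.

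**Figure D4:**
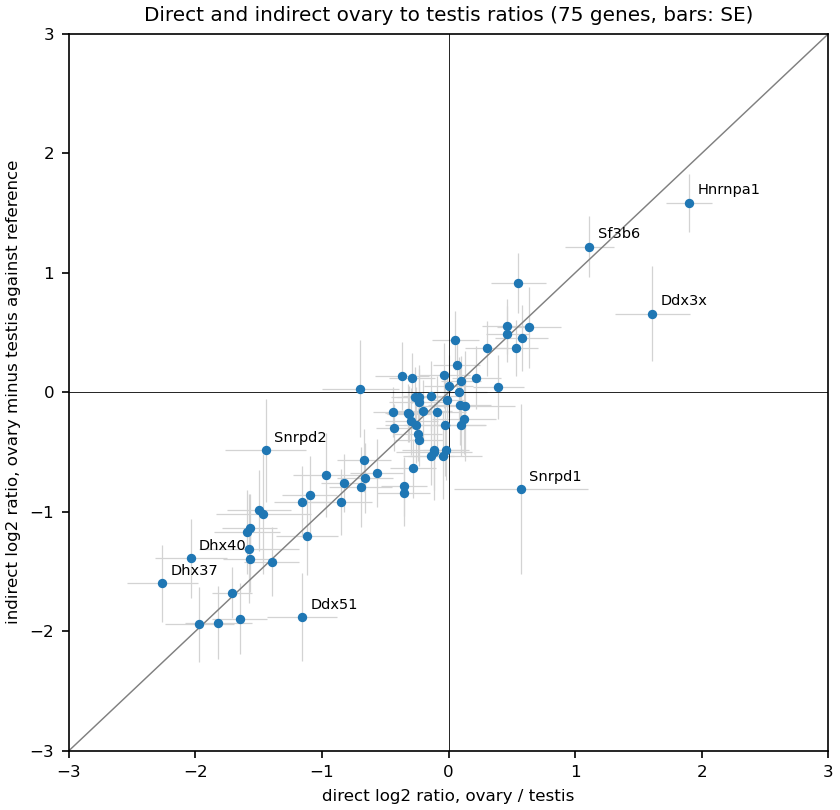
Ovary to testis log2 ratio of the 75 genes from the direct arrays (x axis) and from the arrays against reference RNA (y axis), with standard errors as bars and the line of equal values in grey. Hnrnpa1 (1.90 and 1.59) and Sf3b6 (1.11 and 1.22) lie at the upper right, and Snrpd1 (0.57 and -0.81) lies farthest from the line.

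The difference between the knockout ratio and the 15 day ratio was tested in the same way. It passed for 107 of all 4465 genes (2.40%) and for none of the 75, of which 9 had an unadjusted p under 0.05. The lowest adjusted p was 0.155, for Hnrnpc (1.02 ± 0.36). Prpf4b was at 0.99 ± 0.36 and Hnrnpu at -0.84 ± 0.30. For Dhx37, Dhx40, Lsm7 and Sf3b6 the differences were -0.04 ± 0.34, -0.03 ± 0.35, -0.00 ± 0.26 and -0.04 ± 0.31. All 4 knockout arrays fell in the inferred array run 1, which held no other comparison. For the knockout the run and the group therefore cannot be told apart.

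Other splicing genes were followed as a list of spliceosome proteins and splicing regulators, of which 65 of 110 were tested. In ovary against testis 7 were higher and 27 lower (median -0.26), at 15 days 12 and 14, in the knockout 7 and 22, in testis against reference 24 and 13, and in ovary against reference 2 and 7. Of all genes 22.4% were higher and 36.5% lower in ovary against testis, and 26.7% and 30.5% in the knockout. As shares of the 65, the lower counts there were near these and the higher counts were well under them. At 15 days 18.0% of all genes were higher and 28.1% lower. The shares of all genes were 35.5% and 25.9% in testis against reference and 9.54% and 13.4% in ovary against reference. No test of the list against all genes was made. Of 25 other RNA helicases 9 were tested, and 2 were higher and 4 lower in ovary against testis. Mbnl1 and Mbnl2, muscleblind regulators of developmental splicing, had the highest ratios of the list in ovary against testis (2.51 ± 0.21 and 2.48 ± 0.25) and in the knockout (2.33 ± 0.21 and 2.10 ± 0.22), above any of the 75 genes. Both were lower in testis than in the reference, at -2.73 and -2.38. Tdrd9, a germ cell helicase that silences transposons, was at -2.83 ± 0.44 in ovary against testis and 2.91 ± 0.44 in testis against reference. Ncbp1, which binds the cap of new transcripts, was at -2.44 ± 0.32 in ovary against testis, -1.78 ± 0.32 at 15 days and -1.97 ± 0.32 in the knockout. Ctnnbl1, a spliceosome protein, was at -2.19 ± 0.18 in ovary against testis and -1.51 ± 0.18 at 15 days. Prmt5, which methylates Sm proteins, was lower in ovary than in the reference (-0.97 ± 0.20).

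RefSeq promoter windows were at hand for 68 of the 75 genes. The whole windows were searched on both strands for short motifs. Each holds the 250 bases before the start and a short stretch after it, which the printed windows leave out. GGGCGG occurred in 46 of 68 windows (67.6%), beside 68.7% of 3660 tested genes with a window. CCAAT occurred in 36 (52.9%, beside 40.1%), TGACG in 36 (52.9%, beside 36.1%) and CCGGAAG in 24 (35.3%, beside 21.6%). TATAAA occurred in 4 (5.88%, beside 6.72%) and the full element TGACGTCA, which holds TGACG within it, in 3 (4.41%, beside 3.61%). Over all 27025 RefSeq windows the shares were 35.9%, 37.9%, 21.02%, 9.12%, 14.2% and 1.88% in the same order. The CCAAT letters were found in 5 of the 9 genes higher in ovary and in 11 of the 23 lower genes with a window. These are matches of letters and were not tested.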

How the data were processed

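The submitters deposited 1 value per probe and array for 21 two-colour arrays; the unit is not stated in the sources used here, and the deposited values, signed and with array medians from 0 to 0.13, were read as log2 ratios, the base being an assumption. The authors' scanner, background correction, dye normalization and filter are not given in the sources used here. Each array was centred on its median over all probes. Probes with 1 gene symbol (9604; 213 had several) and values on at least 3 arrays in each of the 5 groups were kept (7561 probes, 4465 genes), and averaged per gene and array. Group means were fitted over all 21 arrays with limma 3.58.1 in R 4.3.3 (lmFit, eBayes), with Benjamini-Hochberg adjustment over 4465 genes and a threshold of 0.05. The fit dropped missing values and imputed none. It was tested on simulated data. Array runs were inferred from the numbers in the titles. The genes, lists and tests were chosen with earlier results of these data known. Per-array values are given for the 4 highest and 4 lowest called genes of each comparison, the X-linked gene and the ends of each subfamily; other genes were named after their values were seen. The probes kept for a called gene never differed in sign (35 cases); of 28 readings by probes left out for missing values, 3 had the opposite sign, 2 for Hnrnpc and 1 for Srsf11. Alternatives changed centring, scaling, probe rules, the spread estimate, channel order, array run and single arrays. Promoter windows came from RefSeq (GRCm38.p6).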

Additional observations from a re-analysis of the deposited data

Results flagged for a closer look

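Of 72 sets of 4 or 5 arrays behind a named gene, 6 held an array far from the others by Dixon's test, which chance alone does in about 1 set in 20. In ovary against testis, array 1 stood apart for Snrpd1 (4.6, with the nearest other array at -0.68), for Lsm7 (-0.33, nearest 0.16) and for Ncbp1 (-1.39, nearest -2.67). In testis against reference, array 2 stood apart for Ddx19b (3.01, nearest 1.46). In ovary against reference, array 3 stood apart for Dhx38 (-0.99, nearest -0.68) and array 1 for Prmt5 (-2.09, nearest -0.84). Ovary against testis array 1 was also the array with the fewest values, on 6452 probes, and without it the means were -0.77 for Snrpd1 (0.57 with it), 0.18 for Lsm7 (0.05) and -2.79 for Ncbp1 (-2.44).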

How the results depend on the processing

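No paired analysis was possible because the labels give no replicate numbers that the groups share. Of the calls among the 75 genes, those that held in every alternative run were 22 of 36 in ovary against testis, 9 of 31 at 15 days, 23 of 37 in the knockout, 21 of 31 in testis against reference and 4 of 8 in ovary against reference; 13, 10, 11, 7 and 4 ended when a single array was left out. Leaving out single arrays gave 27 to 37 calls in ovary against testis (4 to 7 higher, lowest without array 2; 21 to 30 lower), 24 to 27 at 15 days (9 to 11 higher, lowest without array 3; 14 to 17 lower), 30 to 37 in the knockout (10 to 11 higher, 20 to 26 lower), 27 to 34 in testis against reference (20 to 25 higher, 6 to 10 lower) and 5 to 9 in ovary against reference (1 to 4 higher, 3 to 8 lower; 5 without array 1 or array 5). The medians then ran from -0.30 to -0.18, 0.06 to 0.17, -0.24 to -0.10 (lowest without array 4), 0.10 to 0.23 and -0.18 to -0.12. With only probes read on all 21 arrays, fewer genes were tested, and the calls were 13 (4 higher, 9 lower), 14 (6, 8), 18 (7, 11) and 14 (7 higher, median 0.0625) in the first 4 comparisons, 0 higher in ovary against reference, and 12 for the indirect ratio. With arrays scaled to one spread, ovary against testis had 3 higher and ovary against reference 29 calls (8 higher, 21 lower, median -0.22). With each comparison's own arrays alone, 23 genes were higher at 15 days and 18 were called in ovary against reference (5 higher, 13 lower); a channel order term gave 3 higher there. At 15 days run 2 alone gave 12 calls (4 higher, 8 lower) and run 5 alone 20 (6 higher). The shares of all genes called under these settings are not given here, so nothing particular to the 75 genes is read from these counts. The knockout minus 15 day difference passed for 1 gene with 1 probe per gene and for 2 with probes on all arrays. The sign turned in a called value for Snrpd1 in ovary against testis without array 1 (-0.77; leaving out single arrays gave -0.77 to 1.06), and with 1 probe per gene for Ddx21 in the knockout (-0.49) and Srsf2 in testis against reference (-0.40). Array run as a random block ended 0 calls. The correlation within runs in that fit was -0.0354, so the block changed the fit little. It also could not separate the knockout from its run. Apart from the constructions named, the cause was not tested. No reads or background signals bear on the precision here.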
